A study of Mus musculus with 10 samples.

Results

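TRIM proteins form a large family of E3 ubiquitin ligases, the enzymes that choose which proteins receive ubiquitin. The expression of their genes was read from RNA-seq of whole mouse ovaries. Members were all rows whose Ensembl identifier maps to a symbol made of Trim, digits and at most 1 letter. The rule took 60 of the 22891 genes in the table, and 46 of these were among the 15629 genes tested, those whose mean reached 10 on the linear scale, or 3.32 as log2. The study compared 5 control ovaries with 5 ovaries labelled Uba3 cKO, taken at 3 weeks of age from C57/Bl6/N;129SvEv7 mice that had received no hormone stimulation. The UBA3 protein is the catalytic part of the E1 that charges NEDD8, a relative of ubiquitin whose attachment switches on the cullin family of ligases. Which Cre or other driver makes the deletion, in which cells, and which exons are lost are not given in the labels. A whole ovary pools oocytes with granulosa, theca, stromal, vascular and immune cells, so that fewer cells of a type and less RNA per cell cannot be told apart.

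A typical TRIM protein carries a RING finger that binds the ubiquitin-loaded E2 enzyme, then 1 or more B-box zinc fingers and a coiled coil through which it pairs with a second copy. The part after the coiled coil differs between subgroups and often selects the target or the place in the cell. It can hold a PRY-SPRY domain, NHL repeats that can bind RNA, a COS box that binds microtubules, or a PHD finger with a bromodomain that reads chromatin. Several PRY-SPRY members act in innate immunity, and many of those are switched on by interferon.

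Values are the deposited log2 normalized expression, and differences are ovaries labelled Uba3 cKO minus control on that scale. Library medians lay between 6.29 and 6.44, and the sequencing depth is unknown because no counts were used here. Separate animals are not stated for the libraries of a group, so each p-value here reflects only how these 10 libraries scattered, which may be technical. Uba3 itself averaged 10.12 in both groups, with an SD of 0.18 among the 5 controls and of 0.069 among the 5 ovaries labelled Uba3 cKO (difference 0.0032, exact two-sided permutation p = 1). A value summed over a whole gene in a whole organ does not check the labels. No gene of the table passed an adjusted p of 0.05 in limma (smallest 0.621). An unadjusted limma p under 0.05 was found for 280 genes (1.79% of those tested), a smaller share than that threshold gives by chance when no gene differs. As for the labelled tissue, all 14 granulosa markers were tested, with a median level of 12.71, as were all 30 oocyte markers (9.87), while 3 of 10 striated muscle markers passed the filter. Control replicate 3 stood apart from the other libraries in a relation to gene length, which is described with the genes it touches.

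The 5 promoters printed here are those of the genes on which the results turn: Trim6, with the largest group difference, and the 5 genes that followed the oocyte transcripts. They are the 250 bases before a RefSeq transcription start, 5′ to 3′ on the gene's strand, in GRCm38.p6. RefSeq promoters were found for 47 of the 60 members, with 60 starts among them since some genes have several. Capitals mark a match, on either strand, to TAATTG, an element recognised by the oocyte homeobox factor NOBOX, or to GAAANNGAAA, the core of the interferon-stimulated response element. The windows were chr7:104218545-104218794 on the plus strand for Trim6, chr9:114564370-114564619 on the minus strand for Trim71, chr8:65018689-65018938 on the minus strand for both Trim60 and Trim61, chr8:64987645-64987894 on the minus strand for Trim75 and chr7:104465194-104465443 on the minus strand for Trim30a.
Trim6: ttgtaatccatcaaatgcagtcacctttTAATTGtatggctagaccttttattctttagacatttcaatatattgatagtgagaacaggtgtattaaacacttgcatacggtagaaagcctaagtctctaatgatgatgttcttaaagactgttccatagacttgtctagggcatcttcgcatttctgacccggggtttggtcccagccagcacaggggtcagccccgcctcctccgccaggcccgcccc
Trim71: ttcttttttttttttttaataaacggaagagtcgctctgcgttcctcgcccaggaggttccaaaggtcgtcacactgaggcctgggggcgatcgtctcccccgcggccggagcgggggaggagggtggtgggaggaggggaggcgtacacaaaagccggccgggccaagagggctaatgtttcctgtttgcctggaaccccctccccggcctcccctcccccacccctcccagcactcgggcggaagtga
Trim60 and Trim61: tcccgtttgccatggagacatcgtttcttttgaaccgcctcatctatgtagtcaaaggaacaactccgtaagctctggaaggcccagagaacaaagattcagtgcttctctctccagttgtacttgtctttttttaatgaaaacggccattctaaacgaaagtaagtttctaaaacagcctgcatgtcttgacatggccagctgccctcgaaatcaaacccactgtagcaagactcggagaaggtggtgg
Trim75: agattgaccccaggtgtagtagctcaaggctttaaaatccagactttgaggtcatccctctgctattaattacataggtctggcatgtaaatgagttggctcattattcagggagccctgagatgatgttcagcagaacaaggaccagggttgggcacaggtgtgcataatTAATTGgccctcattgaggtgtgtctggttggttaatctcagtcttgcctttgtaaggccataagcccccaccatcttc
Trim30a: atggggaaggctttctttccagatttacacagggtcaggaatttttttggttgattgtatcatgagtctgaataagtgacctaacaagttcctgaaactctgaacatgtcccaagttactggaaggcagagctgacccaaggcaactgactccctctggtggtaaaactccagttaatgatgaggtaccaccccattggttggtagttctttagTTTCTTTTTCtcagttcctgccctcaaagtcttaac

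Trim60 and Trim61 share a single RefSeq start, so their window is identical and is shown once. TAATTG occurred in the windows of Trim6 and Trim75 but not in those of Trim71, Trim60 or Trim61. Counted per promoter, it occurred in 6 of the 60 TRIM promoters (10%), against 7.17% of all 32851 promoters of that length. The matches were in Trim2, Trim31, Trim37, Trim6, Trim68 and Trim75. GAAANNGAAA occurred in 5 of the 60 (8.33%), those of Trim12c, Trim26, Trim30a, Trim30d and Trim5, against 2.98% of all promoters. All of these but Trim26 belong to a single cluster of related genes on chromosome 7, so their promoters may not be independent. A second RefSeq start of Trim30a had neither match. TATAAA, the TATA box, occurred in 6 of the 60 (10%), against 12.4% of all promoters. These matches describe the letters and do not show that a factor binds there.

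TRIM gene levels spanned most of the range of the table. Trim28, also called KAP1, the corepressor that KRAB zinc finger proteins bring to chromatin, was the highest member with a mean of 13.36. Trim8 followed at 12.15, and Trim44, which has no RING finger, stood at 11.83 beside Trim35 at the same value. Trim27, Trim37, Trim26, Trim33, Trim24, Trim25, Trim59 and Trim32 completed the 12 tested members with a mean of at least 10. At the other end 14 members lay under the filter and were not tested, of which 11 had means under 2. They were Trim5 (3.30), Trim17, Trim34b, Trim31, Trim38, Trim63, Trim29, Trim43c, Trim67, Trim10, Trim80, Trim72, Trim43a and Trim52 (0.51). Trim63 and Trim72 are known from striated muscle.

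On a per-length scale, the log2 value minus the log2 exon length in kilobases, Trim28 (11.30) again led Trim8 (10.26), followed by Trim35 (9.63) and Trim44 (9.34). Trim61, which has a short exon length, came next at 9.01, with Trim27 at 8.88. Trim61 and Trim27 were closer to each other than the SD of Trim61 over the 10 libraries (0.27), so their order is not set apart from that spread. Trim59 (8.58) and Trim32 (8.56) likewise lay closer than the SD of Trim32 (0.13).

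**Figure D1:**
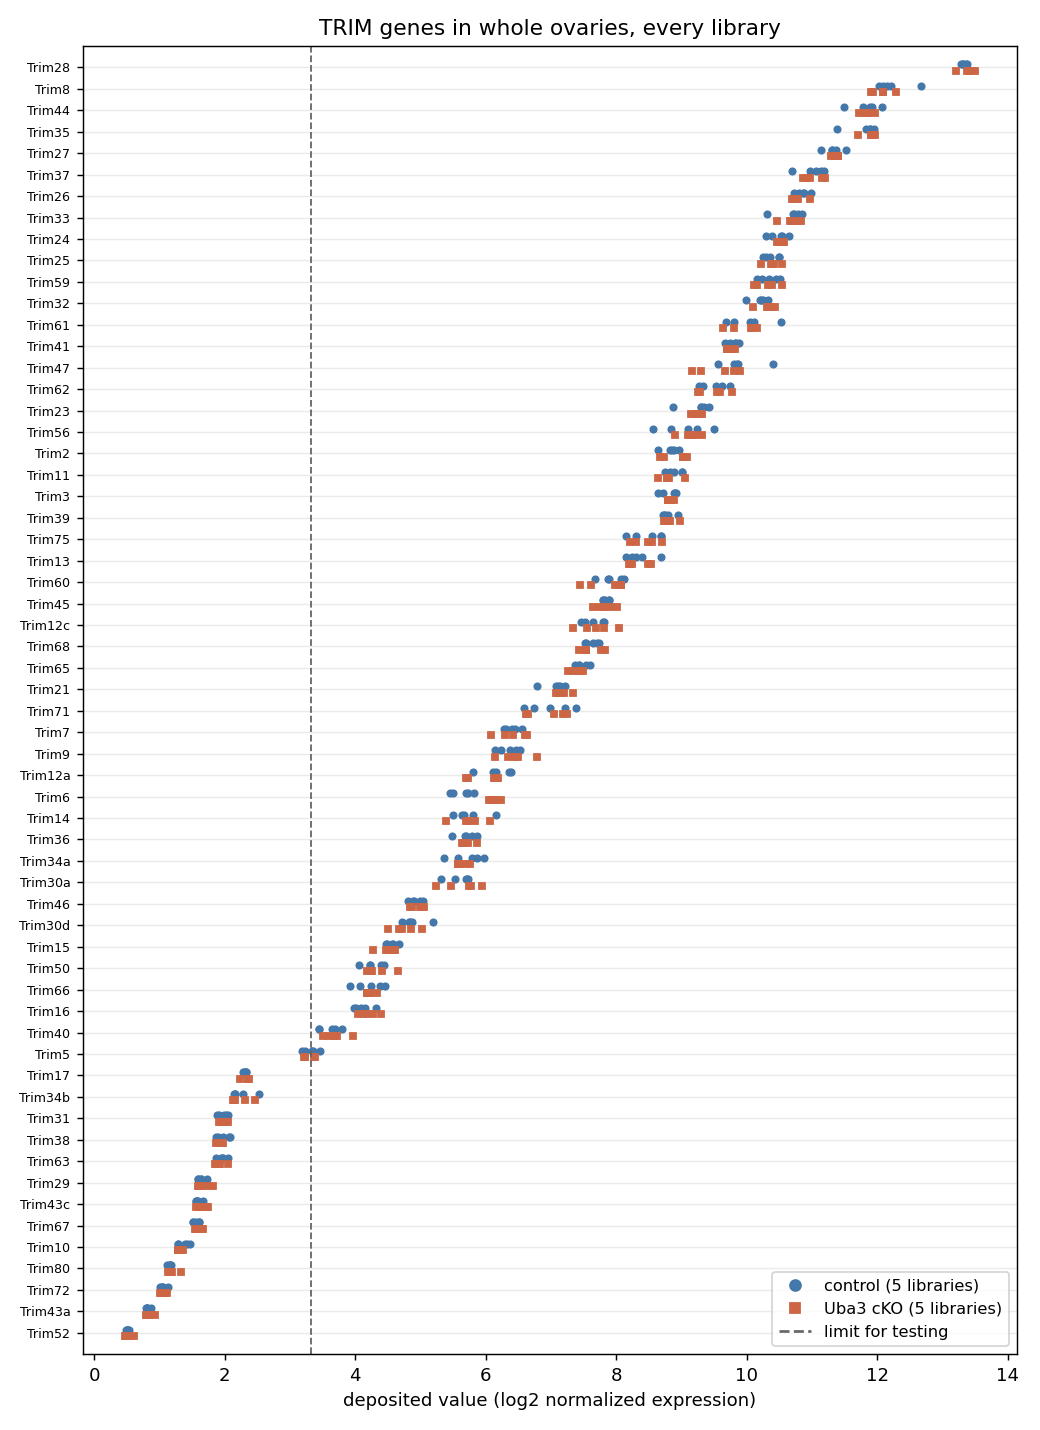
Deposited log2 values (horizontal axis, log2 normalized expression) of the TRIM genes in each of the 10 libraries, with points for control and Uba3 cKO ovaries. Trim28 stands highest at a mean of 13.36, and 14 members lie under the filter at 3.32.

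No TRIM gene differed between the groups after adjustment: 0 of 46 passed in limma, as did 0% of all genes. Means were higher in ovaries labelled Uba3 cKO for 26 members and lower for 20 (56.5% higher, against 50.2% of all tested genes). The median difference was 0.0069 log2 units over TRIM genes and 0.00034 over all genes. The median size of a difference was 0.045 for TRIM genes and 0.050 for all genes. The 95% interval lay within 0.5 log2 units of 0 for 44 of 46 members (95.7%, against 94.9% of all genes), the exceptions being Trim6 and Trim47. For all 46 it lay within 1 log2 unit. The deposited scale draws no line between biological and counting variation, so an interval here covers the spread between libraries only.

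**Figure D2:**
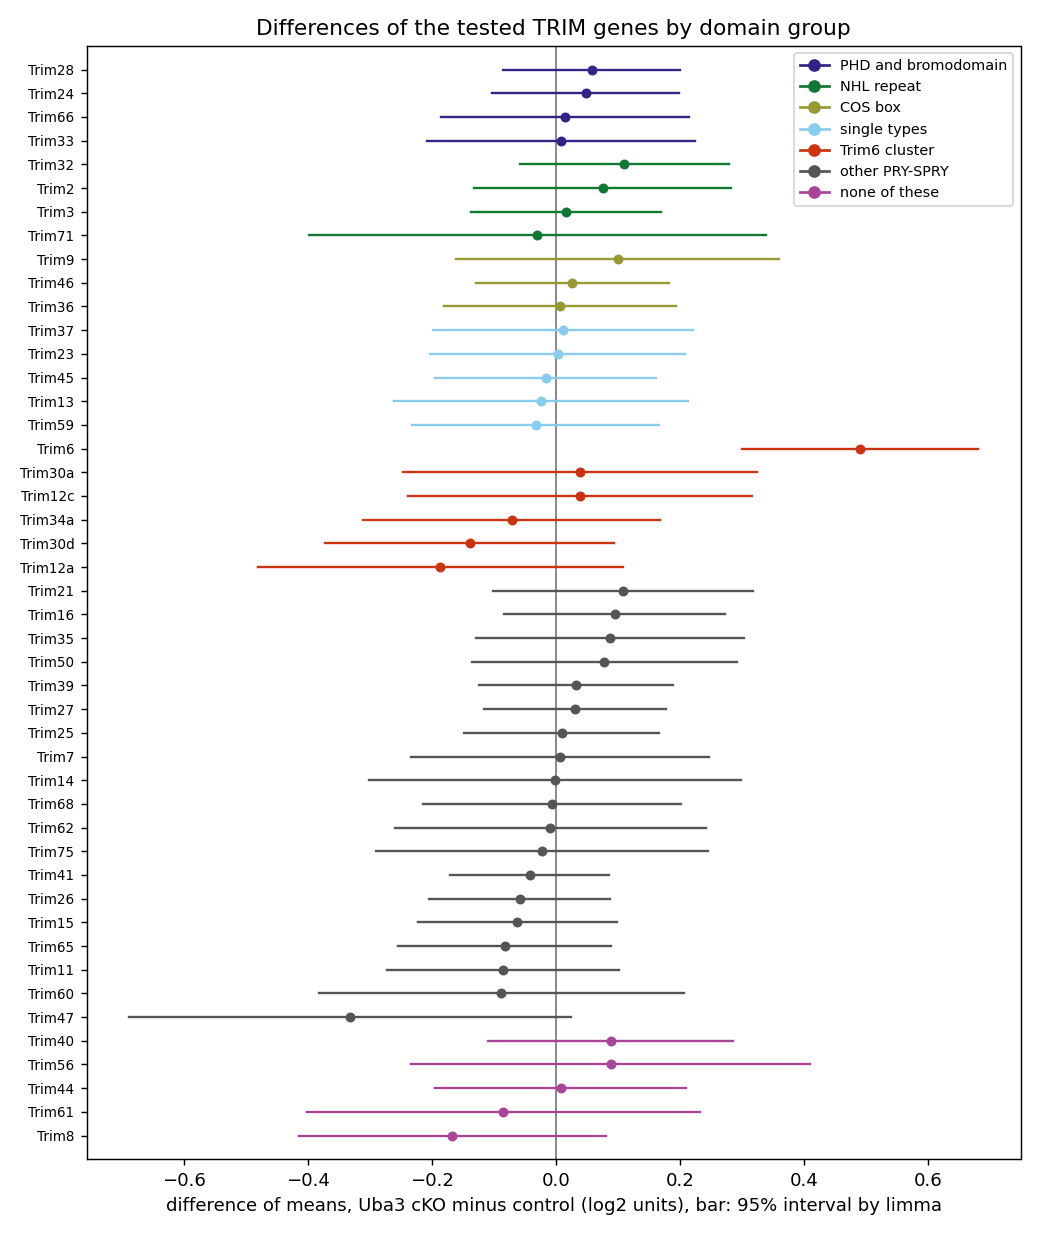
Difference of group means (horizontal axis, Uba3 cKO minus control, log2 units) for each of the 46 tested TRIM genes, with 95% intervals by limma. Genes are grouped by a domain after the coiled coil, except that the Trim6 cluster is a group set by chromosomal position. The group of other PRY-SPRY genes holds only those placed in no other group, so other groups can also hold genes with that domain. Trim6 at 0.49 is the largest, and the intervals of 44 genes lie within 0.5 log2 units of 0.

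Among the chromatin readers with a PHD finger and bromodomain, all 4 had a higher mean in ovaries labelled Uba3 cKO and none passed the test (differences 0.0085 to 0.058). In control ovaries Trim28 stood at 13.35, 13.32, 13.29, 13.31 and 13.37, and in ovaries labelled Uba3 cKO at 13.21, 13.49, 13.37, 13.43 and 13.42. The groups overlapped, and the lowest library was in the group labelled Uba3 cKO. Its difference was 0.058 (standard error 0.066), and its SD over the 10 libraries, 0.08, was among the smallest of the tested members. Trim24, a coregulator of nuclear receptors, differed by 0.048 (standard error 0.070). Trim33, which acts in TGF-beta signalling with SMAD proteins, differed by 0.0085 (standard error 0.10). Of 15 partners of KAP1 in silencing, fixed as a list, 15 were tested and 0 had an unadjusted p under 0.05. The 2 with the smallest p were Pphln1 (difference -0.094) and Morc3 (0.048), and 8 of the 15 had a higher mean.

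The 4 members with NHL repeats also had no call. Trim32, a ligase mutated in a limb-girdle muscular dystrophy, was the highest at 10.25 and differed by 0.11 (standard error 0.078). Trim2, a ligase of neurofilament in neurons, differed by 0.075 (standard error 0.096), and Trim3, its close relative, by 0.016. Trim71, also called LIN41, an RNA-binding repressor and a target of the let-7 microRNAs, differed by -0.030 (standard error 0.17). Of 5 COS-box members, Trim9, Trim36 and Trim46 were tested, and their differences were 0.099, 0.0066 and 0.026. Trim9 and Trim46 are known from neurons, and Trim63 and Trim67 lay under the filter.

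The 5 members whose part after the coiled coil is of another type differed by -0.033 to 0.012. Trim37, which carries a MATH domain and is lost in mulibrey nanism, averaged 11.01 ± 0.20 among controls against 11.02 ± 0.15 (SD, n = 5 each). Trim59, anchored in membranes, differed by -0.033. Trim13, a ligase of the endoplasmic reticulum membrane, differed by -0.024, but its transcript is 95.9% identical to Gm9359 over 75.6% of its length, so its reads cannot be assigned with certainty. Trim23, which ends in an ARF GTPase domain, differed by 0.0025.

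The largest lower mean of any member was that of Trim47, a PRY-SPRY ligase. Trim47 stood at 9.87, 9.56, 10.40, 9.86 and 9.81 in controls and at 9.66, 9.30, 9.90, 9.16 and 9.81 in ovaries labelled Uba3 cKO. Control replicate 3 was the highest library and the groups overlapped. The difference was -0.33 (standard error 0.16, 95% interval -0.69 to 0.025, limma adjusted p = 0.9999) and -0.21 without control replicate 3. Trim8, a ligase in cytokine and NF-kappa-B signalling with none of the domains named for the groups, showed the same library at its top. It stood at 12.02, 12.15, 12.67, 12.22 and 12.09 in controls and at 12.09, 12.09, 11.94, 11.90 and 12.29 in ovaries labelled Uba3 cKO. The difference was -0.17 (standard error 0.11) and -0.058 without control replicate 3.

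Of the immune PRY-SPRY ligases, Trim21, the cytosolic antibody receptor, differed by 0.11 (standard error 0.097). Trim25, which ubiquitinates the RNA sensor RIG-I, differed by 0.0089 (standard error 0.073). A fixed list of 18 genes of RIG-I and interferon signalling had 17 in the table, all tested, of which 11 had a higher mean and 0 an unadjusted p under 0.05. Irf9, part of the interferon-activated transcription complex, had the smallest p (difference 0.16, standard error 0.078), followed by Dhx58 (0.093). Of 12 tested E2 enzymes 9 had a lower mean and 0 had an unadjusted p under 0.05, and Ube2l3 (-0.11) and Ube2d1 (-0.10) had the smallest p. Pml, Mid1 and Mid2, TRIM genes with other symbols, differed by 0.065, 0.019 and -0.0028.

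Trim6 stood apart from the other members. It encodes a PRY-SPRY ligase known for making unanchored ubiquitin chains in interferon signalling. It lies on chromosome 7 at the edge of a cluster of related genes. Control libraries stood at 5.73, 5.70, 5.50, 5.46 and 5.83, and ovaries labelled Uba3 cKO at 6.06, 6.17, 6.24, 6.09 and 6.13. The highest control lay under the lowest of the other group, so the groups did not overlap. This was 1 of 46 members (2.17%), against 0.320% of all tested genes without overlap, with 0.198% higher. At an unadjusted p under 0.05 there was likewise 1 of 46 (2.17%, against 1.79% of all genes). The means were 5.64 ± 0.16 and 6.14 ± 0.069 (SD, n = 5 each), a difference of 0.49 (standard error 0.088, 95% interval 0.30 to 0.68), or 1.41-fold on the deposited scale. Its limma p ranked second of all genes and was 0.621 after adjustment, so it did not pass the threshold. Leaving out any 1 library gave differences of 0.44 to 0.54, and its adjusted p over all alternatives ran from 0.393 to 0.99998.

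The neighbours of Trim6 did not share that pattern. In GRCm38 the cluster runs in the order Trim6, Trim34a, Trim5, Trim12a, Trim34b, Trim12c, Trim30a and Trim30d, leaving out neighbours that are not analysed here. Trim34a differed by -0.072, Trim12a by -0.19, Trim12c by 0.038, Trim30a by 0.039 and Trim30d by -0.14, and none passed the test. Reads of some neighbours cannot be assigned with certainty, since Trim34b is 98.7% identical to Trim34a over its whole transcript and Trim5 is 95.04% identical to Trim12c over 66.8% of its transcript.

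A different split of the libraries ran through the middle of the cluster, and it was noticed only after the values were seen. Trim12a stood at 6.36, 6.11, 6.39, 5.80 and 6.16 in controls and at 6.19, 6.15, 5.72, 5.70 and 6.12 in ovaries labelled Uba3 cKO. Control replicate 4 and Uba3 cKO replicates 3 and 4 were thus the lowest. Trim34b, under the filter, was highest in the same 3 libraries at 2.53, 2.46 and 2.31, with control replicate 5 close below at 2.28. Trim12c stood at 7.80, 7.82 and 8.05 in them, and of the other libraries control replicate 1 was as high, at 7.81. Transcripts of Trim12c and Trim12a are 96.0% identical over 25.9% of Trim12c. No test was made of this split because it was drawn from the values.

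**Figure D3:**
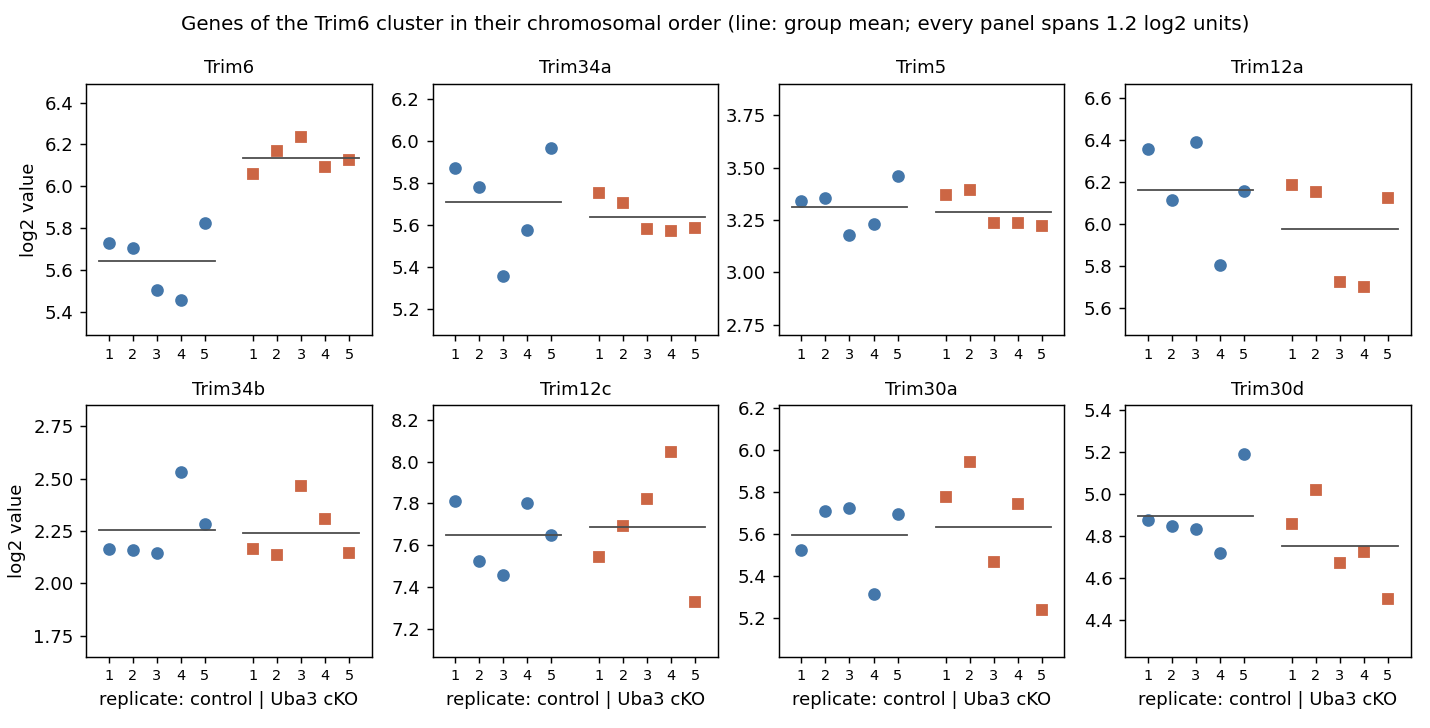
Log2 values (vertical axis) of the genes of the Trim6 cluster in their order on chromosome 7, with 1 point per library by replicate number, the group mean as a line and 1.2 log2 units in every panel. Trim6 is the panel in which the groups do not overlap, and Trim12a is lowest in control replicate 4 and Uba3 cKO replicates 3 and 4.

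Libraries differed in the amount of oocyte transcripts, and some TRIM genes followed it. The oocyte score, the mean log2 value of 30 oocyte markers such as Gdf9, Zp3 and Nobox, was 9.30, 9.88, 9.92, 9.29 and 9.58 in controls and 9.86, 9.74, 9.33, 9.85 and 9.13 in ovaries labelled Uba3 cKO. Low libraries at 9.13 to 9.33 and high ones at 9.74 to 9.92 occurred in both groups, with control replicate 5 between them. In a limma fit of each gene on the score with the group as a covariate, 5 of 46 TRIM genes had a positive slope (10.9%, against 2.14% of all tested genes) and 0 a negative one (against 0.256%). A slope of 1 means that the gene changes as much as the score, and the slopes of the 30 markers themselves, which make up the score, ran from 0.47 to 1.43 with a median of 1.06.

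Trim71 had the steepest slope, 0.92 (standard error 0.15, adjusted p = 0.0090 by limma). It stood at 6.74, 7.38, 7.21, 6.58 and 6.98 in controls and at 7.18, 7.25, 6.64, 7.05 and 6.62 in ovaries labelled Uba3 cKO. The 4 libraries with an oocyte score under 9.58 were the lowest 4 for this gene. Trim61 followed with a slope of 0.79 (standard error 0.13, adjusted p = 0.0094 by limma). It stood at 9.68, 10.11, 10.52, 9.81 and 10.05 in controls and at 10.15, 10.08, 9.81, 10.07 and 9.63 in ovaries labelled Uba3 cKO, again with the same 4 libraries at the bottom.

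Trim60 and Trim75 lie beside Trim61 on chromosome 8 and were named after their values were seen. Trim60 had a slope of 0.70 (standard error 0.13, adjusted p = 0.018 by limma) and Trim75 a slope of 0.64 (standard error 0.12, adjusted p = 0.020 by limma). Trim75 stood at 8.30, 8.69, 8.68, 8.15 and 8.55 in controls and at 8.48, 8.55, 8.30, 8.71 and 8.22 in ovaries labelled Uba3 cKO, with the same 4 libraries lowest. Trim60 ran from 7.44 to 8.12, and control replicate 4 (7.89) was slightly above control replicate 5 (7.87). Trim60 and Trim61 overlap on the same strand and share a stretch of 69 identical bases. Their values may therefore not be independent, and how shared reads were counted is not given.

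Trim30a, known as a brake on NF-kappa-B signalling, had a slope of 0.64 (standard error 0.15, adjusted p = 0.043 by limma). It stood at 5.52, 5.71, 5.72, 5.32 and 5.70 in controls and at 5.78, 5.94, 5.47, 5.74 and 5.24 in ovaries labelled Uba3 cKO, with the same 4 libraries lowest. Its neighbour Trim30d had a slope of 0.27 and did not pass the test. The most negative slope was that of Trim37, -0.45 (standard error 0.11, adjusted p = 0.061 by limma), which missed the threshold, and Trim44 had -0.33.

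The fit with the group as a covariate pools the slopes within the groups, and these genes were picked by it. That both groups of 5 gave positive slopes is therefore a description and not a further check. The slopes were 1.04 in controls and 0.82 in ovaries labelled Uba3 cKO for Trim71, 0.97 and 0.65 for Trim61, 0.76 and 0.53 for Trim75, 0.53 and 0.84 for Trim60, and 0.49 and 0.76 for Trim30a. The number of calls rested on single libraries. It was 3 without control replicate 1, 2 without control replicate 2, 3 without control replicate 4, 2 without Uba3 cKO replicate 4 and 1 without Uba3 cKO replicate 5. Without Uba3 cKO replicate 5 and control replicate 4, the libraries farthest from the median score, 0 TRIM genes and 11 of all genes were called. The slopes in that fit were 0.94 for Trim71, 0.86 for Trim61, 0.75 for Trim60, 0.59 for Trim75 and 0.43 for Trim30a. Trim30a lost its call when any library other than control replicate 5 was left out, and with quantile normalization. With the stroma score as a further covariate Trim71 and Trim61 were still called. Trim61 had its smallest slope over the alternatives, 0.65, without control replicate 3. That library had the highest oocyte score and is also the one set apart by its relation to gene length. None of the 5 genes differed between the groups, and Trim71, for example, stood at 6.98 ± 0.33 and 6.95 ± 0.30 (SD, n = 5 each).

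**Figure D4:**
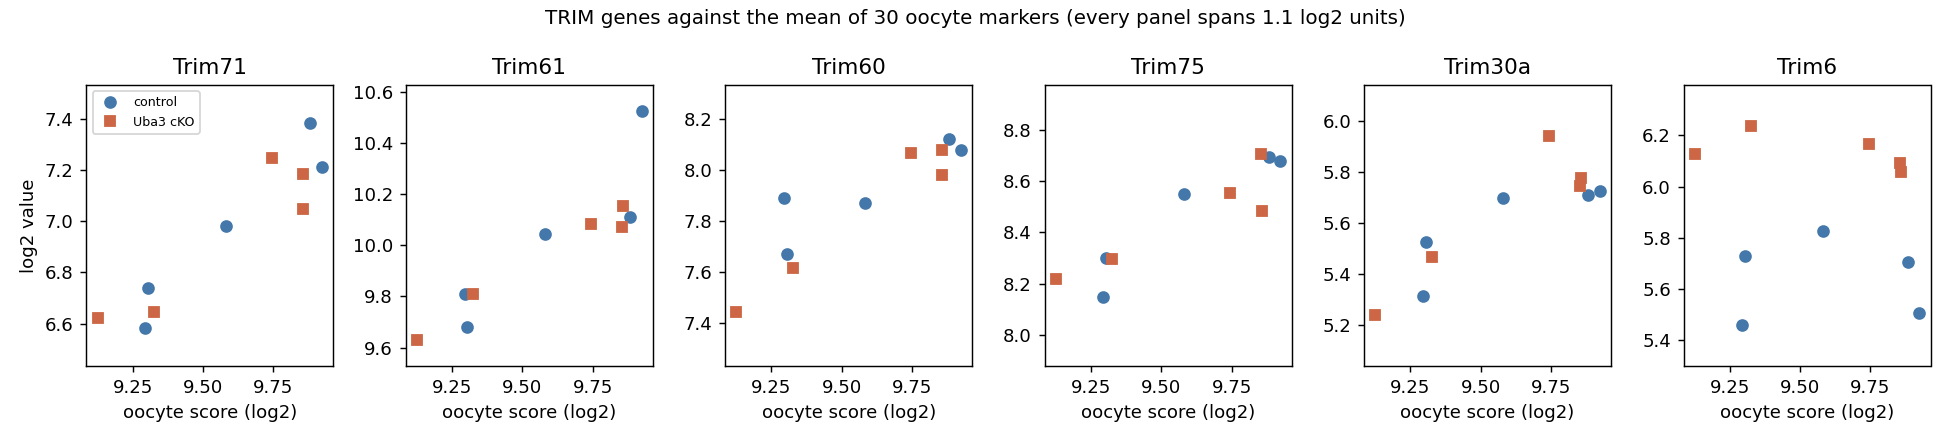
Log2 values (vertical axis) of TRIM genes against the oocyte score (horizontal axis, mean log2 value of 30 oocyte markers), 1 point per library, circles for control and squares for Uba3 cKO, with 1.1 log2 units in every panel. Trim71 and Trim61 follow the score most steeply, with slopes of 0.92 and 0.79.

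On a stroma and vessel score of 18 markers 0 TRIM genes were called (1.32% of all genes were positive and 0.0320% negative), and leaving out control replicate 1 gave 1. On an immune score of 15 markers 0 TRIM genes were called, with 0% of all genes in either direction, and 2 of 46 TRIM genes had an unadjusted p under 0.05, against 2.04% of all genes. The immune score lay between 5.41 and 5.83 in the libraries.

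Control replicate 3 differed from the other libraries in a way that tracked gene length, and several of the highest TRIM genes moved with it. Regressed on log2 exon length over 9182 genes, the deviations of each library from the gene means had a slope that was -0.155 in control replicate 3 and between -0.060 and 0.058 in the other libraries. In that library the longer members by exon length (n = 23) had a median deviation of -0.13 from the mean of all libraries, and the shorter ones (n = 23) of 0.014. Among the members alone such a relation was not confined to that library. The correlation of deviation with log2 exon length was -0.40 in control replicate 3 and -0.43 in Uba3 cKO replicate 1. In Uba3 cKO replicate 5 the medians went the other way, at 0.019 for the longer members and -0.11 for the shorter ones. Control replicate 3 held the lowest value of 13 of the 46 members and the highest of 9. Other libraries came near, with the lowest of 9 in Uba3 cKO replicate 5 and the highest of 8 in control replicate 5. No such count was made over all genes. Trim35 stood at 11.38 in control replicate 3 and between 11.71 and 11.96 in the other libraries, and Trim33 at 10.32 against 10.46 to 10.85. Trim8 and Trim47 were at their highest in control replicate 3.

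In a fit on that slope with the group as a covariate, added after the values were seen, 9 of 46 TRIM genes were positive (19.6%, against 11.9% of all genes) and 3 were negative (6.52%, against 8.58%). The positive genes were Trim44, Trim35, Trim33, Trim24, Trim25, Trim32, Trim23, Trim56 and Trim66, and the negative ones Trim8, Trim47 and Trim13. Without control replicate 3 none of them and 0 of all genes were called. These genes were picked by a fit that rested on that library, so a move of their group differences without it was built in. Leaving that library out changed the sign of the group difference for 8 of these 12 genes, none of which passed the test with all libraries. Without that library Trim12c, Trim37, Trim61, Trim71 and Trim75, named members outside these 12, changed sign too. No such share was taken over all other members, so the count is only a description. Trim56, an antiviral ligase, differed by 0.088 with it and by -0.034 without it, and Trim35 by 0.088 and -0.014. Trim44 went from 0.0072 to -0.076, Trim33 from 0.0085 to -0.082 and Trim23 from 0.0025 to -0.092. Trim25 went from 0.0089 to -0.023, Trim66 from 0.015 to -0.057 and Trim13 from -0.024 to 0.059. The other 4 kept their sign: Trim47 went from -0.33 to -0.21, Trim8 from -0.17 to -0.058, Trim32 from 0.11 to 0.058 and Trim24 from 0.048 to 0.0010. The part of the length relation in these group differences was not tested.

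**Figure D5:**
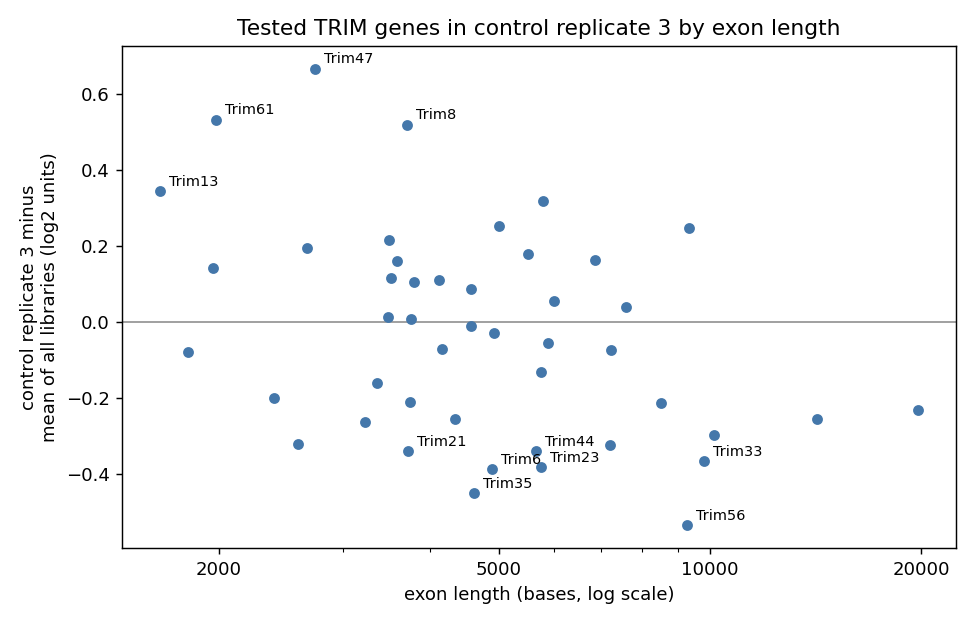
Deviation of control replicate 3 from the mean of all libraries (vertical axis, log2 units) for the 46 tested TRIM genes against exon length (horizontal axis, bases, log scale). The longer genes lie lower, with a median deviation of -0.13 against 0.014 for the shorter ones.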

How the data were processed

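RNA was measured in 10 whole-ovary libraries, 5 per group, from PicoPure extracts, TruSeq libraries and NovaSeq sequencing (per the labels' protocols). Groups came from the genotype in the labels. The authors deposited 1 log2 value per gene and library, from -0.21 to 20.19, whose transform the table does not name. Per the submitters' processing notes, the build was GRCm39 and the software comprised DESeq2, featureCounts, STAR and fastp, without versions or roles. Whether counting used strand is not given in the sources used here. The depth is unknown, so no count test, pseudocount or counting interval was applied, and differences of low genes may be understated.

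Symbols were found for 22188 of the 22891 identifiers. Names, exon lengths and transcripts came from GENCODE M21 and promoters from RefSeq, both on GRCm38, so no gene positions are given beyond the promoter windows. Matches between transcripts were searched with blastn 2.17.0 at a minimum of 95% identity over 50% of the transcript, and 7 members had one. Of 68 TRIM symbols in the name table, 60 had a row and the rest are not analysed here. Group differences came from limma 3.58.1 (R 4.3.3, trended variance) on genes whose linear mean reached 10, with Benjamini-Hochberg adjustment over all tested genes at 0.05. Uba3 was tested by exact two-sided permutation, whose smallest possible p is 0.00794. Scores were fitted with the group as a covariate. The length slope used 9182 genes with a log2 mean of at least 8. The fits were also run on simulated data, and no result given here rests on that run.

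Named genes were Uba3, TRIM genes with an unadjusted p under 0.05 or non-overlapping groups, the 2 highest and the 2 with the largest difference in each role group, the 2 most positive and most negative on each score, the tested genes of the Trim6 cluster, and up to 2 per pathway list. Other genes are named in counts, levels or by values seen. The members and lists were chosen with earlier results of these data known. Alternatives were other filters, scalings, variance models, a replicate block and each library left out. Covariates for length and stroma, and leaving out the libraries farthest from the median score, were added after seeing the data.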

Additional observations from a re-analysis of the deposited data

Results flagged for a closer look

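In each group of 5 libraries, the gap between the lowest or highest library and its nearest neighbour was compared with the range of the group. Of 64 groups of 32 named TRIM genes, 4 had a library far from the others, and chance alone gives about 1 in 20. Control replicate 3 was the low library in 3 of the 4. It stood at 8.87 for Trim23, at 10.32 for Trim33 and at 11.38 for Trim35, each the lowest of the controls. The other was Uba3 cKO replicate 1, the lowest of its group for Trim35 at 11.71. The length slopes of the libraries were -0.155 in control replicate 3 and -0.060 in Uba3 cKO replicate 1, the most negative of the 10, and their part in these values was not tested.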

How the results depend on the processing

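The calls of the group comparison were 0 for TRIM genes under every alternative run, and 0 for all genes except 1 with the length slope as a covariate. Genes at an unadjusted p under 0.05 numbered 280, against 604 with no filter and 133 with a mean of at least 50, and TRIM genes at that threshold 1 to 2. The median TRIM difference ran from -0.014 to 0.034. Of 32 named TRIM genes 14 kept the sign of their difference under all alternatives, and 18 small differences changed it in some. Uba3 ran from -0.056 to 0.066 with 1 library left out.

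TRIM genes called on the oocyte score numbered 5, and 1 to 5 with 1 library left out, 0 without the 2 libraries farthest from the median score and 2 with the stroma score as a covariate. On the stroma score they numbered 0 to 1 with 1 library left out. On the length slope they numbered 12, and 0 to 12 with 1 library left out. The cause was not tested.

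Control and Uba3 cKO libraries share replicate numbers, but nothing says that a number marks a shared source. Correlations of same-numbered libraries were -0.338, 0.199, 0.099, 0.034 and 0.318, and 1 of 5 matched its own number best. With the replicate number as a block, 0 TRIM genes were called between groups (Trim6 adjusted p = 0.9999 by limma) and 0 on the oocyte score, where Trim71 had a slope of 0.86 (adjusted p = 0.080) and Trim61 of 0.85 (adjusted p = 0.062).

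With library quality weights, differences changed sign for Trim13 (0.011), Trim23 (-0.068), Trim33 (-0.041), Trim37 (-0.039), Trim44 (-0.041), Trim61 (0.0058), Trim71 (0.0071) and Trim75 (0.019). With the length slope as a covariate they changed for Trim13 (0.013), Trim23 (-0.034), Trim33 (-0.038), Trim36 (-0.0043), Trim37 (-0.019) and Trim44 (-0.031). With 1 library left out, differences ran from -0.051 to 0.13 for Trim12c, from -0.078 to 0.059 for Trim13, from -0.092 to 0.046 for Trim23, from -0.016 to 0.079 for Trim27, from -0.026 to 0.041 for Trim3, from -0.038 to 0.14 for Trim30a, from -0.082 to 0.065 for Trim33, from -0.014 to 0.13 for Trim35, from -0.048 to 0.046 for Trim36, from -0.067 to 0.057 for Trim37, from -0.076 to 0.067 for Trim44, from -0.0041 to 0.056 for Trim46, from -0.090 to 0.015 for Trim59, from -0.15 to 0.010 for Trim60, from -0.17 to 0.037 for Trim61, from -0.050 to 0.087 for Trim7, from -0.13 to 0.070 for Trim71 and from -0.10 to 0.036 for Trim75.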

Other observations

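Trim16, a PRY-SPRY ligase first known from estrogen-responsive cells, stood low in these ovaries at a mean of 4.16. It had the largest positive t of the TRIM genes on both the stroma and the immune scores, with slopes of 0.32 (standard error 0.11, adjusted p = 0.303 by limma) and 0.78 (standard error 0.27, adjusted p = 0.9998 by limma), neither of which passed the threshold. Trim7, a ligase that binds glycogenin, had a slope of 0.35 on the stroma score (adjusted p = 0.504 by limma). Trim59 had the most negative slope on the immune score, -0.76 (adjusted p = 0.9998 by limma), also under no call.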
